A study of Homo sapiens with 6 samples.

Results

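The E protein genes TCF3, TCF4 and TCF12 and the ID genes ID1, ID2, ID3 and ID4 were followed in KMS11, an established human line from multiple myeloma, the malignancy of plasma cells. The 7 genes were chosen by their symbols from the 17918 genes of the table, and each symbol occurred once. RNA was sequenced from 6 libraries. In 3 of them CRIP1, the gene of a LIM domain protein, was knocked down with a short hairpin RNA (shRNA). The other 3 carried a scrambled hairpin and have a wild-type genotype in the labels. Neither group had a further treatment, and the labels do not say whether the lines were pools or clones, or whether replicates came from separate cultures. P-values therefore measure the spread between these libraries, which may be technical.

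E proteins are basic helix-loop-helix (bHLH) transcription factors that bind E-boxes, DNA sites of the form CANNTG, as pairs with themselves or with lineage-specific bHLH partners. ID proteins have the helix-loop-helix but no basic DNA-binding region, so they pair with E proteins and keep them off DNA. In the B lineage, E proteins are needed for early B cell development and act again in germinal centre B cells and plasma cells, and ID genes are classic targets of bone morphogenetic protein (BMP) and SMAD signalling.

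Promoter sequence is shown for TCF3 and ID2, which fell most, and for ID4, which had no reads. The windows of ID2 and ID4 hold the same E-box. Whether any of these sites plays a part in the levels was not tested. Sequences are from RefSeq (GRCh38.p14), 5′ to 3′ on the gene's strand, with position -1 the base before the annotated start. In the ID2 and ID4 stretches of 30 bases the E-box CAGCTG is in capitals. It begins at -205 in ID2 (chr2:8681839-8681868, plus strand) and at -21 in ID4 (chr6:19837337-19837366, plus strand). In the 250 bases before the TCF3 start (chr19:1652616-1652865, minus strand), the capitals mark GGGCGG, the GC box, on either strand.
ID2: tatttaccacccCAGCTGggctcgcgcccc
ID4: gctctataaataCAGCTGcgcggcgggccg
TCF3: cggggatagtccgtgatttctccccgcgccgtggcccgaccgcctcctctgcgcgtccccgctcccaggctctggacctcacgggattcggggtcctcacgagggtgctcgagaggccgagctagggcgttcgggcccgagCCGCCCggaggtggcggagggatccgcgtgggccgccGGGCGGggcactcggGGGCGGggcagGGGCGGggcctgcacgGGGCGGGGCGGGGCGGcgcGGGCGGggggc

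The 250 bases before a start were searched on both strands, overlapping matches included. ID2 and ID4 each held 1 match to CANNTG, and the TCF3, ID1 and ID3 windows held 0. TCF4 and TCF12 have several windows, and some of these held 1 match while others held 0. Of all 35114 windows of that length, 61.8% held CANNTG and 14% held CAGCTG. The TCF3 window held 8 matches to GGGCGG, some of which share a base, and 42.6% of windows held at least 1 and 0.584% at least 8. The ID4 window held 6, those of ID1 and ID2 held 2 each, and that of ID3 held 0. Windows of TCF4 and of TCF12 held up to 3. In GENCODE 29 the ID2 stretch overlaps exons of ID2 and of the antisense gene ID2-AS1, while the ID4 and TCF3 stretches overlap none. RefSeq lists 10 starts for TCF4 and 5 for TCF12, and the counts pool the transcripts of each gene.

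Library totals were 16971454 to 18005318 estimated counts. CRIP1 stood at 4.2% of its scramble level after knockdown (3097 ± 276 against 130.1 ± 3.71 TPM; SD, n = 3). Of all 12612 genes tested, 77.6% passed the test in either direction (39.4% higher and 38.1% lower), so counts of marker genes called say little alone. The plasma cell marker list had 11 of 12 genes tested, of which 4 rose and 7 fell, with SLAMF7, picked for its near absence, at 2 and 9 summed counts. Its summed level was 9896 to 10356 TPM in scramble and 5752 to 6033 TPM after knockdown. JCHAIN, the joining chain of secreted antibodies, carried that difference, at 6443 ± 223 and 1789 ± 158 TPM (SD, n = 3). The other 11 markers summed to 3696 to 3716 TPM in scramble and 3984 to 4141 TPM after knockdown. Among them MZB1 and PRDM1 fell (-1.21, SE 0.05, and -0.95, SE 0.04), and SEC11C, TNFRSF17, IRF4 and CD38, named after their values were seen, rose by 0.30 to 0.51 on the log2 scale. Of the erythroid list, 12 of 13 tested genes rose and 0 fell, and its sum went from 3.86 to 5.66 TPM in scramble to 753 to 763 TPM after knockdown. The fetal globins HBG1 and HBG2, close copies of each other, and the embryonic globin HBE1 had 0 counts in scramble. After knockdown they had 1503, 1700 and 1563. Other globins were picked after their counts were seen. The alpha globins HBA1 and HBA2 had 0 counts in scramble and 862 and 354 after knockdown, whereas the adult beta globin HBB had 0 and 1. Epithelial markers summed to 22.2 to 25.9 and 92.1 to 101 TPM, with 5 of 8 tested genes higher and 1 lower. The keratins KRT8 and KRT18 rose from 1.09 to 22.9 and from 0.64 to 27.5 TPM, and KRT19 had 0 and 396 counts. Keratin KRT7, named after its values were seen, went the other way, from 8.91 to 5.93 TPM (-0.73, SE 0.16). Sums of the mature B cell, T and NK cell, myeloid, and fibroblast and endothelial lists were at most 38.1 TPM in any library. The myeloid sum was 3.56 to 3.89 TPM in scramble and 9.12 to 10.9 TPM after knockdown. The mature B cell sum was 29.7 to 30.9 and 36.4 to 38.1 TPM. The T and NK cell sum was 5.14 to 6.08 and 4.69 to 5.3 TPM. The fibroblast and endothelial sum was 8.42 to 9.19 and 6.15 to 6.92 TPM. In that list COL1A2 had 0 and 660 counts, while COL1A1 had 189 and 8 and PDGFRB 1001 and 173. Libraries correlated at 0.995 to 0.996 within groups and at 0.921 to 0.923 between them. The labels call both groups KMS11. Transcripts of HBG1, HBG2, HBE1, HBA1, HBA2, GATA1, KRT8, KRT18 and KRT19, low or at 0 in the scramble libraries, were nevertheless higher in all 3 knockdown libraries. Whether the knockdown libraries hold RNA of KMS11 alone was not tested, and CRIP1 knockdown and a difference in the cells themselves cannot be told apart in any comparison below. "Knockdown" names the libraries labelled with the CRIP1 shRNA throughout. The part of these markers in the results was not tested. In bulk RNA, fewer cells of a type and less RNA per cell cannot be told apart.

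The E protein gene with the highest level changed from TCF3 to TCF4, and ID2, the main ID gene of these cells, fell to about the same extent as TCF3. These 3 genes passed the test under every setting tried. ID1 was lower, but its call was lost under some settings. TCF12 and ID3 did not pass the test in the count model, and ID4 had no reads. Levels below are TPM, which are scaled for gene length and library size and can be set beside each other across genes. Changes are log2 fold changes of the counts, knockdown minus scramble, from edgeR's quasi-likelihood test, and adjusted p-values are over all 12612 genes tested (threshold 0.05).

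TCF3 (NCBI gene 6929, chromosome 19, 1609290 to 1652605, minus strand, GRCh38 as annotated by GENCODE 29) encodes the most widely studied E protein of B cells. It was at 233, 232 and 225 TPM in the scramble libraries and at 69.6, 79.8 and 76.1 TPM in the knockdown libraries. Every scramble value was above every knockdown value, and the gap between the groups was far wider than the spread within either. The gene had 8525, 8669 and 8156 estimated counts in scramble and 2459, 2953 and 2674 after knockdown. TCF3 fell 3.44-fold (log2 fold change -1.78 with SE 0.05, edgeR adjusted p = 6.74e-18). Its knockdown mean was 32.7% of the scramble mean (75.2 ± 5.20 against 230.2 ± 4.14 TPM; SD, n = 3), and 7.21% of all genes tested had a larger change in either direction.

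TCF4 (NCBI gene 6925, chromosome 18, 55222331 to 55664787, minus strand) encodes the E protein that also directs plasmacytoid dendritic cells. It was at 63.6, 65.5 and 67.6 TPM in scramble and rose to 108, 106 and 114 TPM after knockdown. The groups did not overlap. Estimated counts were 4352, 4520 and 4566 in scramble and 7394, 7418 and 7581 after knockdown. The fitted increase was 1.52-fold (log2 fold change 0.60 with SE 0.04, edgeR adjusted p = 2.9e-12). By TPM the knockdown mean was 167% of the scramble mean (109.7 ± 4.20 against 65.5 ± 1.99 TPM; SD, n = 3). On log2(TPM + 1) the median of all genes was 0.12 higher after knockdown. The transcript of TCF4 is poor in GC (38.2%, against 61.2% for TCF3), and with a GC trend removed from each library the increase was 0.37 (adjusted p = 1.9e-10), still past the threshold.

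TCF12 (NCBI gene 6938, chromosome 15, 56918623 to 57299281, plus strand), the third E protein gene, was at 24.2, 25.8 and 27.6 TPM in scramble and 28.7, 29.2 and 29.5 TPM after knockdown. The TPM values did not overlap, but the counts scaled by edgeR differed by less than the test can call. The log2 fold change was 0.02 (SE 0.04, edgeR adjusted p = 0.646), with a 95% interval of -0.07 to 0.11. The sign and the call depended on the scaling. TCF12 was higher on log2(TPM + 1) by 0.17 (adjusted p = 0.0172, limma), where the median of all genes moved up by 0.12, and lower with the GC trend removed, at -0.16 (adjusted p = 0.000761), where that median was -0.08. Without scramble replicate 1 it was -0.0049 (adjusted p = 0.93).

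**Figure D1:**
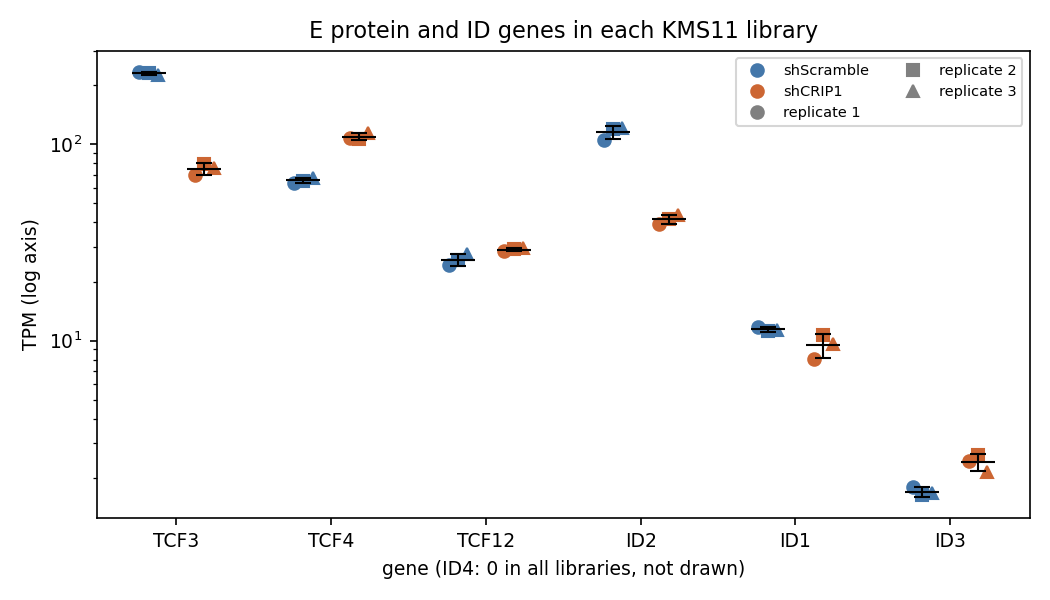
TPM (log axis) of each E protein and ID gene in the 3 scramble and 3 CRIP1 shRNA libraries, with black bars for the group mean ± SD. TCF3 and ID2 are lower and TCF4 is higher in all 3 knockdown libraries, and ID4, at 0 throughout, is not drawn.

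ID2 (NCBI gene 3398, chromosome 2, 8678845 to 8684453, plus strand), whose product restrains E proteins in many lymphoid cells, was the most abundant ID gene. It was at 105, 120 and 122 TPM in scramble and at 39.3, 41.8 and 43.7 TPM after knockdown. All 3 knockdown values lay below the scramble values, and scramble replicate 1 was the lowest of its group. Estimated counts were 1067, 1238 and 1225 against 395, 438 and 434. ID2 fell 3.06-fold (log2 fold change -1.61 with SE 0.06, edgeR adjusted p = 5.27e-15), to 36% of its scramble mean (41.6 ± 2.2 against 115.6 ± 9.32 TPM; SD, n = 3). The antisense gene ID2-AS1 overlaps ID2 in GENCODE 29 and was not analysed here, and without a stated strand setting its reads cannot be told from those of ID2.

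ID1 (NCBI gene 3397, chromosome 20, 31605283 to 31606515, plus strand) was at 11.7, 11.2 and 11.3 TPM in scramble and 8.03, 10.7 and 9.64 TPM after knockdown. Scramble values were close together, and the knockdown values were lower and more spread, with replicate 1 the lowest and replicate 2 near the scramble range. Estimated counts were 85, 82 and 81 against 57, 83 and 67, so this gene rests on far fewer reads than ID2. ID1 fell by 0.39 on the log2 scale (SE 0.14, edgeR adjusted p = 0.0177; 9.46 ± 1.35 against 11.4 ± 0.282 TPM; SD, n = 3). That call was lost without knockdown replicate 1 (-0.27, adjusted p = 0.105), without scramble replicate 1 (-0.37, adjusted p = 0.0511) and under the DESeq2 Wald test (-0.40, adjusted p = 0.103), and the change was -0.25 on log2(TPM + 1).

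ID3 (NCBI gene 3399, chromosome 1, 23557918 to 23559794, minus strand) was barely detected. It had 12, 11 and 11 estimated counts in scramble and 16, 18 and 14 after knockdown, or 1.80, 1.62 and 1.66 against 2.43, 2.60 and 2.14 TPM. The knockdown values were the higher ones in each case, but the difference was not detectable at this depth in the count model (log2 fold change 0.36 with SE 0.30, edgeR adjusted p = 0.292), with a 95% interval of -0.27 to 0.99. Limma on log2(TPM + 1) called it, at 0.33 (adjusted p = 0.00566), without using the depth. ID4 (NCBI gene 3400, chromosome 6, 19837386 to 19840684, plus strand) had 0 counts in all 6 libraries. A count of 0 over a group allows up to 0.0585 CPM (counts scaled to the library total) in scramble and 0.0567 after knockdown, at a limit of 3 counts that covers counting error only.

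Of the 6 genes tested, 1 rose and 3 fell, against 77.6% of all genes tested called in either direction (39.4% higher and 38.1% lower). A call alone therefore says little about these genes in this comparison. Their median log2 fold change was -0.19, beside 0.01 over all genes. For size, 8.06% of all genes fell at least 2-fold, as TCF3 and ID2 did, and 18.2% rose at least 1.5-fold, as TCF4 did. Permuting the libraries (exact, two-sided, on TPM) gave p = 0.1 for each of the 6 genes, the smallest that 3 against 3 libraries allow. TPM values of the groups did not overlap for any of the 6, and the same held for 78.5% of all genes tested.

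**Figure D2:**
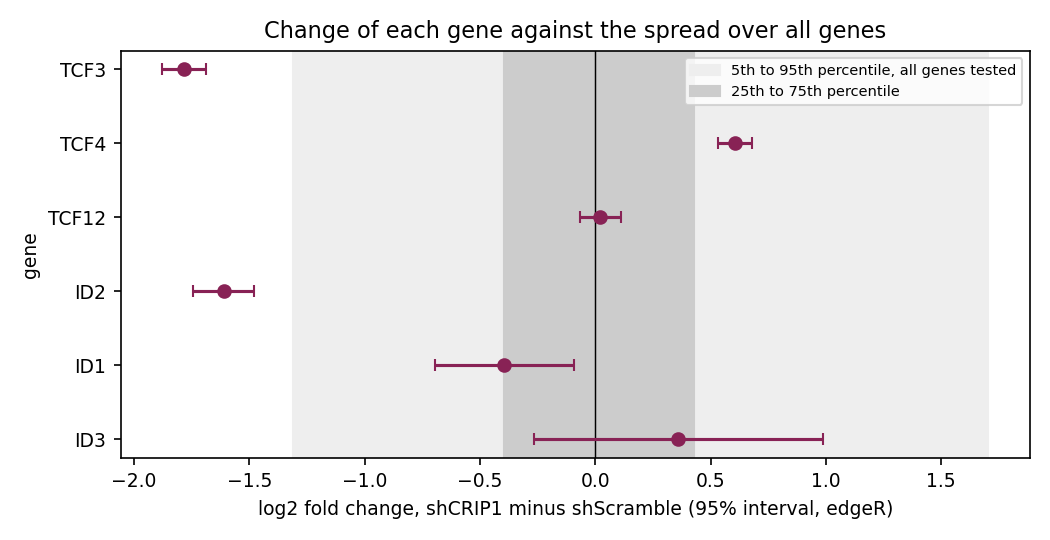
Log2 fold change of each gene with its 95% interval from edgeR, over grey bands that hold the middle 50% and 90% of all 12612 genes tested. TCF3 (-1.78) and ID2 (-1.61) lie below the 5th percentile, at -1.31, and TCF4 (0.60) lies above the 75th, at 0.43.

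In scramble the order of levels was TCF3, ID2, TCF4, TCF12, ID1, ID3 and ID4. After knockdown it was TCF4, TCF3, ID2, TCF12, ID1, ID3 and ID4. Within each group no neighbours in this order overlapped between libraries. TCF4 and TCF3, for example, were at 106 to 114 and 69.6 to 79.8 TPM after knockdown.

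The make-up of the E protein transcripts turned over between the groups. TCF3 supplied 72.6%, 71.8% and 70.3% of the summed E protein TPM in scramble and 33.7%, 37.1% and 34.6% after knockdown. TCF4 supplied 19.8%, 20.2% and 21.1% in scramble and 52.5%, 49.3% and 52% after knockdown. The ratio of TCF4 to TCF3 went from 0.285 ± 0.0136 to 1.46 ± 0.119 (SD, n = 3). TCF12 supplied 8.04% ± 0.545 and 13.6% ± 0.247.

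The summed E protein level was 321, 323 and 321 TPM in scramble and 207, 215 and 220 TPM after knockdown, which is 66.5% of scramble. The summed ID level was 118, 133 and 135 TPM in scramble and 49.8, 55.1 and 55.5 TPM after knockdown, which is 41.5% of scramble. ID transcripts were thus at a lower share of scramble than E protein transcripts. ID per E protein transcript was 0.369, 0.411 and 0.421 in scramble and 0.241, 0.256 and 0.252 after knockdown. ID2 made up 89.8% ± 1.04 of the ID sum in scramble and 77.9% ± 1.75 after knockdown (SD, n = 3). On log2(TPM + 1) the median of all genes was 0.12 higher after knockdown, against 0.01 in edgeR. Shares of scramble by TPM therefore run higher than the fitted changes. These sums describe transcripts, not proteins, and carry no test.

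**Figure D3:**
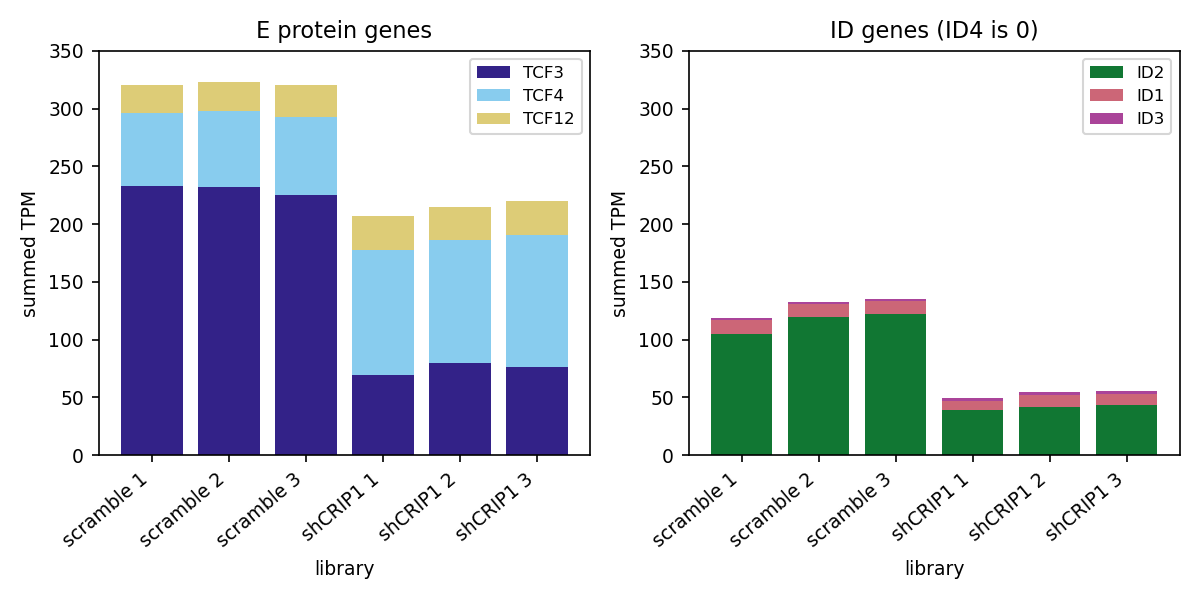
Summed TPM of the E protein genes (left) and the ID genes (right) in each library, stacked by gene on the same scale from 0. TCF3 is the largest block of the E protein bars in scramble and TCF4 in the knockdown libraries, and ID2 fills most of each ID bar.

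The lineage-specific bHLH partners of E proteins went both ways. Of 24 in the table, 13 were tested, and 3 rose and 6 fell (69.2% called, median -0.16). BHLHE22, a bHLH repressor best known from neurons, was the most abundant, and fell by 1.09 on the log2 scale (SE 0.04), with means of 129.7 ± 3.07 and 66.9 ± 1.59 TPM (SD, n = 3). TAL1 and LYL1, the partners of E proteins in blood stem cells and red cell precursors, were absent or nearly so in scramble. LYL1 had 0 counts there and 368 after knockdown, at least 119-fold higher for a floor of 3 counts over the group. TAL1 had 1 and 475 counts, a ratio of 461 with a 95% counting interval of 82.3 to 18227.

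Further partners are named after their values were seen. MSC, which inhibits E proteins in activated B cells, fell from 9.73 to 4.25 TPM (-1.33, SE 0.11), and OLIG1 fell from 10.8 to 0.88 TPM (-3.75, SE 0.19). BHLHA15, a secretory cell factor expressed in plasma cells, was at 15.4 and 15.1 TPM and did not pass the test (-0.16, SE 0.09, edgeR adjusted p = 0.0888).

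Cofactors of E proteins were about evenly split, with 8 higher and 6 lower of 18 tested (77.8% called, median 0.03). SSBP2, a subunit of the LDB1 complex, fell from 105 ± 3.78 to 54.5 ± 2.22 TPM (-1.03, SE 0.04). The histone demethylase KDM1A fell from 75 ± 1.72 to 48.7 ± 1.61 TPM (-0.77, SE 0.04). GATA1, the red cell factor that joins TAL1 and E proteins on DNA, had 0 scramble counts and 509 after knockdown, at least 164-fold higher. Named after their values were seen, CBFA2T3, a corepressor of that complex, had 0 and 320 counts (at least 103-fold higher), and the LIM bridge protein LMO2 rose from 0.997 to 2.75 TPM (1.34, SE 0.24). LDB1 itself was at 66 and 74.2 TPM and did not pass the test (0.01, SE 0.04, edgeR adjusted p = 0.842). GATA1 is also in the erythroid list, of which 12 of 13 tested genes rose, summing to at most 5.66 TPM in scramble and at least 753 TPM after knockdown.

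Genes that set the stability of ID proteins all passed the test, with 2 higher and 6 lower of 8 (median -0.38). ID proteins are short-lived. They are marked for degradation by the anaphase-promoting complex and rescued by the deubiquitinase USP1. FZR1, an activator of that complex, fell from 21.4 ± 1.13 to 12.2 ± 0.943 TPM (-0.92, SE 0.06). The activator CDC20 (-0.46, SE 0.04) and the subunit CDC27 (-0.49, SE 0.04) fell as well. The 2 that rose are named after their values were seen. CDC16, another subunit of that complex, rose from 66 to 89.7 TPM (0.30, SE 0.05), and COPS5 from 184 to 260 TPM (0.36, SE 0.04). The list summed to 634 to 644 TPM in scramble and 662 to 683 TPM after knockdown. USP1, also chosen with its values in view, fell from 133 to 119 TPM (-0.30, SE 0.04).

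**Figure D4:**
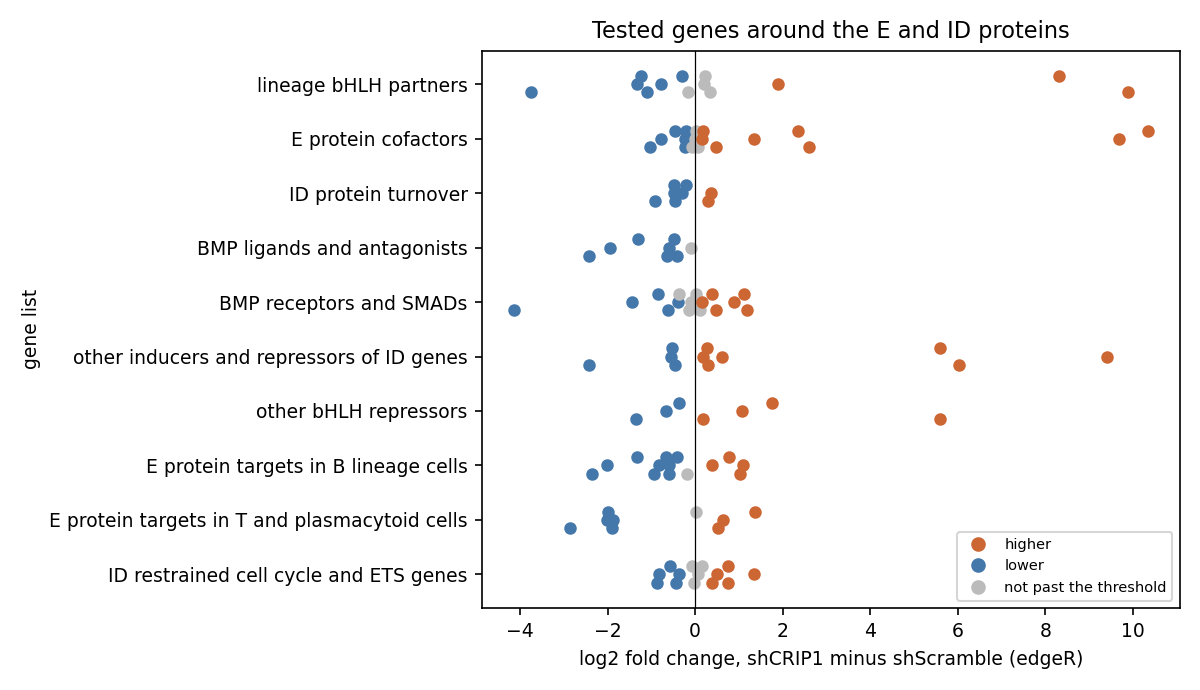
Log2 fold changes from edgeR of the tested genes in each list around the E and ID proteins, coloured by whether they passed the test. The points above 8 (GATA1, LYL1, CBFA2T3, TAL1 and STAT5A) had at most 2 scramble counts, so their fitted values depend on the prior count.

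The list of BMP ligands and antagonists was low in both groups and mostly lower after knockdown. It also holds BMP1, named after its values were seen, which is a protease and not a BMP ligand, and which fell (-0.48, SE 0.11). Of 8 tested, 0 rose and 7 fell (87.5% called, median -0.62). BMP7 fell from 1.79 ± 0.144 to 0.507 ± 0.136 TPM (-1.94, SE 0.20) and the antagonist CHRDL1 from 0.83 ± 0.165 to 0.173 ± 0.0208 TPM (-2.41, SE 0.31). BMP8A (-1.30, SE 0.13) and BMP8B (-0.60, SE 0.08) are close copies of each other, and how reads were divided between them is uncertain. On log2(FPKM + 1), 4 of the list fell, and without knockdown replicate 1, 1 rose.

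Receptors and SMADs moved in both directions, with 6 higher and 5 lower of 16 tested (68.8% called, median -0.03). SMAD1, which carries the BMP signal to ID promoters, rose from 37.3 ± 1.63 to 93.4 ± 2.40 TPM (1.19, SE 0.04). SMAD7, an inhibitor of the pathway, fell from 54.9 ± 1.19 to 34.4 ± 0.499 TPM (-0.84, SE 0.05), and the receptor ACVR1 fell from 16.1 ± 0.825 to 11.5 ± 0.492 TPM (-0.62, SE 0.07). The endothelial receptor ACVRL1 had 54 and 3 counts, a ratio of 0.0539 (95% counting interval 0.0108 to 0.166). With the GC trend removed, 3 rose and 8 fell, and on log2(FPKM + 1), 3 fell.

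Other factors reported to control ID genes all passed the test, 7 higher and 4 lower of 11 (median 0.27), or 2 lower with at least 50 counts in 3 libraries. EGR1, an immediate early factor that induces ID3 in lymphocytes, rose from 0.233 ± 0.107 to 17 ± 0.641 TPM (6.02, SE 0.16). ATF3, which can repress ID1, rose from 76.2 ± 3.01 to 128 ± 1.17 TPM (0.61, SE 0.04). STAT5A, a cytokine-driven factor, had 2 and 1753 counts, a ratio of 850 (95% counting interval 235 to 7022). Of 7 tested bHLH repressors outside the ID family, 4 rose and 3 fell (median 0.18), and 2 rose on log2(FPKM + 1) or with at least 50 counts in 3 libraries. HES6 fell from 190 ± 11.5 to 81.7 ± 9.28 TPM (-1.35, SE 0.06) and BHLHE41 rose from 16.4 ± 0.807 to 38.0 ± 1.14 TPM (1.07, SE 0.05). HES1, a target of Notch, had 1 and 71 counts, a ratio of 68.8 (95% counting interval 12 to 2757).

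Genes known as E protein targets in B lineage cells were mostly lower. Of 24 in the table, 14 were tested, and 4 rose and 9 fell (92.9% called, median -0.60). PRDM1, the plasma cell regulator, fell from 66.8 ± 0.544 to 38.7 ± 0.770 TPM (-0.95, SE 0.04). IGLL5 fell from 173 ± 8.30 to 45.5 ± 2.21 TPM (-2.01, SE 0.05), though it resembles immunoglobulin lambda genes and its reads may be shared with them. BLK, a B cell kinase, fell from 34 to 7 summed counts (-2.35, SE 0.50). The homing receptor CXCR4 went the other way, from 146 ± 5.88 to 344 ± 11.3 TPM (1.10, SE 0.04). IRF4, RAG1 and BCL6, named after their values were seen, also rose (0.39, SE 0.03, 1.03, SE 0.36, and 0.77, SE 0.22). RAG1 rested on 19 and 43 summed counts. RAG2, named after its values were seen, had 0 counts in all libraries. Of the list, 2 rose under the DESeq2 Wald test, with at least 50 counts in 3 libraries, and under limma on log2(FPKM + 1), log2(TPM + 1) or log2(TPM + 0.1).

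Targets described in T cells and plasmacytoid dendritic cells were mostly too low to test. Of 19, 9 were tested, and 3 rose and 5 fell (88.9% called, median -1.87). The members that fell furthest in TPM, SOCS3 and SOCS1, are feedback inhibitors of cytokine signalling. SOCS3 fell from 88.1 ± 3.74 to 26.3 ± 1.55 TPM (-1.87, SE 0.05) and SOCS1 from 24.2 ± 0.964 to 6.60 ± 0.145 TPM (-2.01, SE 0.11). IL3RA and TLR7, of plasmacytoid cells, fell from 98 to 27 and from 55 to 8 summed counts (-1.98, SE 0.29, and -2.86, SE 0.43), while IRF7 and BCL11A, also expressed in those cells and named after their values were seen, rose from 5.48 to 9.48 and from 0.78 to 1.18 TPM (0.63, SE 0.13, and 0.53, SE 0.19). With at least 50 counts in 3 libraries 1 rose and 2 fell, and on log2(FPKM + 1) 1 rose and 3 fell, with fewer genes tested.

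The cell cycle inhibitors, RB1 relatives and ETS factors that ID proteins act on were even, with 5 higher and 5 lower of 14 tested (71.4% called, median 0.02), or 8 higher on log2(TPM + 1) or log2(TPM + 0.1). CDKN2B rose from 6.18 ± 0.716 to 17.3 ± 1.11 TPM (1.35, SE 0.08) and RBL1, a pocket protein, from 25.8 ± 1.15 to 45.8 ± 1.05 TPM (0.74, SE 0.04). CDKN2C fell from 254 ± 3.83 to 180.5 ± 2.27 TPM (-0.86, SE 0.04) and ETS1 from 82.0 ± 2.51 to 50.8 ± 2.98 TPM (-0.83, SE 0.04). CDKN1A, a classic E protein target, had 7.75 and 8.13 TPM and did not pass the test (-0.06, SE 0.10, edgeR adjusted p = 0.602). It was chosen with its values in view.

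Adjusted p-values of the genes said to rise or fall in these lists were at most 0.0142 by edgeR, that of BCL11A. Shares called ran from 68.8% to 100% between these lists, beside 77.6% of all genes tested. The share called was not tested for any list.

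The genes whose log2 CPM (counts scaled to library size) lay closest to each member over the 6 libraries, centred on the scramble mean, were named by distance. GPC4 and SLCO2B1 were among the 3 genes nearest to ID2 (0.0923 and 0.117), with log2 fold changes of -1.67 and -1.61. TCF3 was nearest to EPOP, GMFG and ZNF467 (0.0808, 0.102 and 0.12), and TCF4 to VEGFA, MRPL30 and ERCC4 (0.0423, 0.0549 and 0.0598). TCF12 was nearest to TXNL1, FXR2 and USP10, ID1 to TAX1BP3, UNC93B1 and TNFSF9, and ID3 to HTATSF1, ABHD16A and ARHGAP17, with distances of 0.0425 to 0.147. With 6 libraries in 2 groups, such closeness mainly describes a similar difference between the groups.

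**Figure D5:**
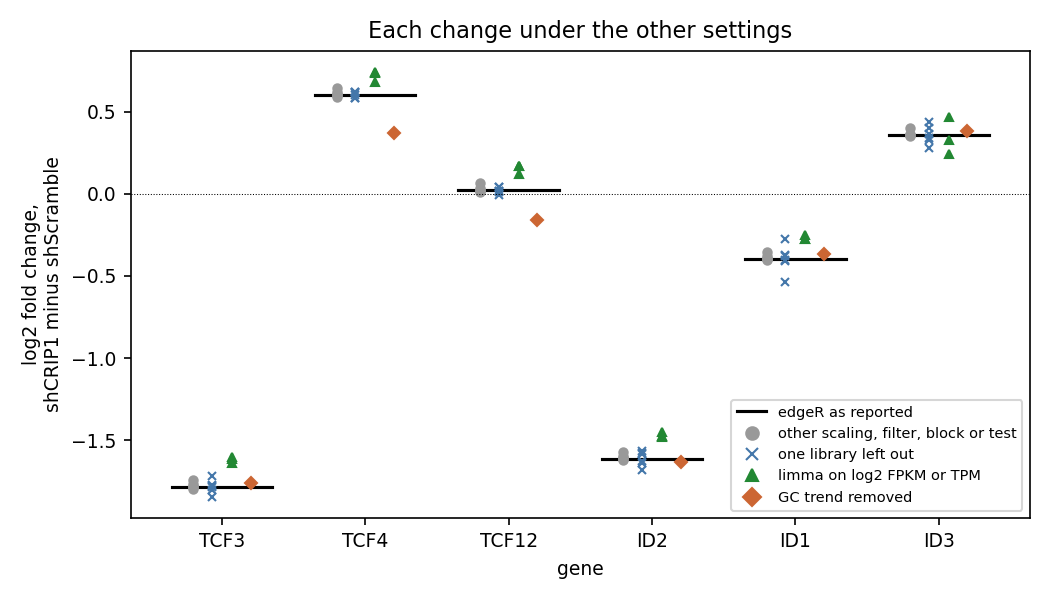
Log2 fold change of each gene as reported (black line) and under each alternative setting (points). TCF3 stays between -1.84 and -1.60, ID2 between -1.68 and -1.45 and TCF4 between 0.37 and 0.74, while TCF12 crosses 0.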

How the data were processed

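Per the labels, RNA of 3 libraries with an shRNA against CRIP1 and 3 with a scrambled shRNA was prepared with a SMARTer kit for mRNA, and titles gave groups and replicate numbers. Per the file headers, the table deposited by the authors gives an estimated count per gene and library that was not normalized, as well as FPKM and TPM, which the authors scaled for gene length and library size. RSEM 1.2.8, HISAT2 2.1.0, Bowtie2 2.2.5 and the build GRCh38.p13 are listed, without roles, in the submitters' processing notes. Annotation and strand setting are not given in the sources used here.

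Rounded counts went into edgeR 4.0.16 under R 4.3.3 (filterByExpr by group, minimum count 10, TMM, quasi-likelihood, group only), with Benjamini-Hochberg adjustment over 12612 genes. SEs were taken as the absolute log2 fold change over the root of the F statistic. Intervals of 95% use edgeR's degrees of freedom, and counting intervals are exact binomial. The common dispersion in edgeR gave a biological coefficient of variation of 3.33%. Libraries of 1 group differed by more than sampling noise (mean chi-square per gene 1.62 to 4.15), so no pair was merged, though such spread can also arise between preparations from 1 culture. Counting error covers reads, not molecules.

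The 7 genes and the gene lists were chosen with earlier results of these data known. Genes named are the 7, CRIP1, for each list other than the markers the 3 of smallest adjusted p and the largest called change, and the 3 nearest genes per member. Of the genes the same rule gives for the marker lists, only those of the plasma cell, erythroid, epithelial, and fibroblast and endothelial lists are named. Others are marked. A gene that this rule names near ID2 is not reported here. Alternatives were a replicate block, upper-quartile scaling, size factors of DESeq2 1.42.0, its Wald test, other filters, limma 3.58.1 on log2(FPKM + 1), log2(TPM + 1) and log2(TPM + 0.1) with at least 1 in 3 libraries, a loess offset on GC content (GENCODE 29, span 0.5), and each library left out. On simulated counts for this comparison (12461 genes), the fit recovered 48 of 60 genes changed 1.25-fold, 65 of 69 at 1.5-fold and 66 of 70 at 2-fold, with 10 false calls. Only 200 genes were changed there, in random directions, whereas 77.6% of genes passed the test in the data. The simulation therefore cannot show how the scaling or the false calls behave when most genes differ.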

Additional observations from a re-analysis of the deposited data

How the results depend on the processing

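TCF3, ID2 and TCF4 kept their direction and stayed past the threshold under all 16 alternatives, with adjusted p-values of at most 8.87e-09, 5.46e-08 and 2.67e-07. ID1 stayed negative but lost its call under the DESeq2 Wald test (-0.40), and ran from -0.54 to -0.27 with 1 library left out (adjusted p = 0.0031 to 0.105). ID3 gained a call under limma at 0.24 on log2(FPKM + 1), 0.33 on log2(TPM + 1) and 0.47 on log2(TPM + 0.1), and could not be tested with at least 50 counts in 3 libraries. TCF12 gained a call as higher on log2(TPM + 1) and log2(TPM + 0.1), at 0.17 in both, and as lower with the GC trend removed, at -0.16, and ran from -0.0049 to 0.043 with 1 library left out. The cause was not tested. Calls over all genes were 50.8% higher as reported and 61.4% and 61.3% higher on log2(TPM + 1) and log2(TPM + 0.1). Of 576 list counts under alternatives, 538 stayed within 1.5 times the reported count. Of the 7 genes, 1 rose as reported, 2 on log2(FPKM + 1) and 3 on log2(TPM + 1) or log2(TPM + 0.1).

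Replicate numbers are shared between the groups but did not pair the libraries. Deviations of same-numbered libraries from their group means correlated at 0.0455, -0.00877 and -0.0133, and not every library correlated best with its own number. With the replicate block 9816 genes were called, against 9783, and ID2 stood at -1.61, TCF3 at -1.78 and TCF4 at 0.60. The depth limits ID3 and ID1, with 34 and 248 counts over the scramble libraries.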
